A study of Drosophila melanogaster with 9 samples.

Results

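The Drosophila melanogaster genes described here code for proteins and have no name beyond the annotation symbol of CG plus digits. The exons of each merge into a single block, and such genes are called intronless here. A spliced transcript whose intron is covered by another exon of the gene would not be seen by this rule. They were chosen from the deposited count table: the exons of a gene had to merge into a single block, the gene had to lie off chromosomes 4, Y and M, and at least 50 fragments had to be counted over the 9 libraries together. This gave 1135 members of the 17575 genes in the table. Another 168 unnamed intronless genes stayed below 50 fragments, 22 of them at 0. Just below the limit were *CG13712*, *CG14410* and *CG5246* at 49 fragments each, and just above it *CG30148* and *CG43680* at 50 and *CG14499* at 51.

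The study asked what splicing contributes to gene expression in the testis, the organ in which male germ cells pass from spermatogonia through spermatocytes to sperm. Each of the 3 genotypes (control, *U2af38* RNAi, *SRPK* RNAi) gave 3 biological replicates of 100 pairs of testes, and their total RNA was sequenced after removal of ribosomal RNA. All males were 1 to 3 days old and raised at 25°C. RNAi was driven by *bam-GAL4*, which is active in late spermatogonia and spermatocytes, and not in the somatic cells of the testis. For controls the study names males of the *bam-GAL4* driver line and siblings of the knockdown males. Which of these, and which RNAi line, was sequenced is not given in the sources used here.

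*U2af38* is the small subunit of the U2AF dimer, which recognises the 3′ splice site. *SRPK* is a kinase that phosphorylates the arginine-serine domains of splicing factors. A transcript without an intron has no splice site to be joined. Its gene still depends on the spliced products of other genes for its transcription. Intronless genes are a minority in the fly genome, and intronless copies that arose from the RNA of other genes are often expressed in the testis. The symbols of the members give no function, and no role is given for a member named below.

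Between 18497748 and 30002574 fragments were counted per library. *U2af38* stood at 37.5 to 42.3 CPM (fragments scaled to a common library size with the TMM factors of edgeR) in control and at 2.46 to 4.38 in *U2af38* RNAi, and *SRPK* at 248 to 281 CPM in control and at 64.5 to 69.0 in *SRPK* RNAi. In *U2af38* RNAi *SRPK* itself was at 589 to 658 CPM, above every control library, and in *SRPK* RNAi *U2af38* was at 47.5 to 53.5, likewise above every control library. The direct comparison of the knockdowns therefore sets a low against a raised level of each targeted gene. Germ cell markers were present in all libraries: the 16 listed spermatid genes, of which *cola* and *swif* were at 0 in every group, summed to 7080 to 7470 CPM in control, 2780 to 2900 in *U2af38* RNAi and 5960 to 6900 in *SRPK* RNAi. Of the 14 spermatid genes tested, 13 were lower and 1 was higher in *U2af38* RNAi by edgeR's call, against 10 and 1 in *SRPK* RNAi. The 9 spermatocyte genes summed to 1420 to 1520, 705 to 743 and 980 to 1090 CPM in the same order. Hemocyte markers (*Hml*, *NimC1* and He) summed to 11.5 to 25.7 CPM in control, 232 to 253 in *U2af38* RNAi and 30.9 to 46.9 in *SRPK* RNAi, and accessory gland markers ranged from 10.1 to 495 CPM among the control libraries alone. Summed levels in control, *U2af38* RNAi and *SRPK* RNAi were 166 to 189, 104 to 107 and 186 to 209 CPM for spermatogonia, 134 to 139, 131 to 136 and 128 to 144 for cyst cells and 160 to 170, 112 to 120 and 135 to 150 for the hub. They were 701 to 954, 672 to 734 and 498 to 675 CPM for the muscle sheath and 12.8 to 36.0, 6.3 to 7.5 and 3.52 to 8.88 for fat body. The study reports that germ cells in *U2af38* RNAi arrest as spermatocytes before meiosis, so that spermiogenesis is missing. It describes germ cell development in *SRPK* RNAi as normal in morphology. The cell types in the testes therefore differ between *U2af38* RNAi and the other genotypes. The part that this arrest and these shifts play in the results on the members was not tested. From the RNA of whole testes alone, fewer cells of a type cannot be told apart from less RNA per cell.

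The members supplied a large share of the RNA of control testes, and less of it in both knockdowns. They held 11.7%, 11.8% and 12% of all counted fragments in the 3 control libraries. In *U2af38* RNAi they held 6.90%, 7.10% and 7.07%, and in *SRPK* RNAi 10.2%, 10.8% and 11.2%. No knockdown library reached the lowest control library. The mean share was 11.8% ± 0.153 (SD, n = 3) in control, 7.02% ± 0.108 in *U2af38* RNAi and 10.7% ± 0.503 in *SRPK* RNAi. An exact permutation test of 3 against 3 libraries gave p = 0.1 for each knockdown, two-sided, which is the smallest value this design allows. After TMM scaling the summed level of the members was 38.1% (*U2af38* RNAi) and 83.8% (*SRPK* RNAi) of that in control, and without the 10 members with the highest control CPM, which held 24.5% to 25.4% of the members' CPM in control, it was 41.0% and 84.1%. Named intronless genes held 5.99% to 6.12% of the fragments in control, 5.32% to 5.44% in *U2af38* RNAi and 5.64% to 5.92% in *SRPK* RNAi. Unnamed genes with introns held 28.0% to 28.3%, 23.1% to 23.4% and 26.7% to 27.6%.

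**Figure D1:**
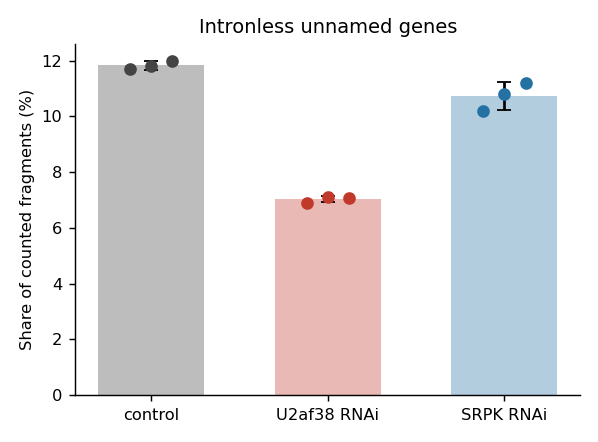
Share of all counted fragments (%, axis from 0) that fell on the 1135 intronless unnamed genes. Points are single libraries, bars are means of 3 libraries and error bars are SD. The *U2af38* RNAi libraries lie between 6.90% and 7.10%, the *SRPK* RNAi libraries between 10.2% and 11.2% and the control libraries between 11.7% and 12%.

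The members were short, with a median exon length of 980 bases (175 to 10443) against 1427 over all genes. Their control levels, given per length so that genes can be compared, had a median of 19.6 CPM per kb of exon, and the middle of the range ran from 1.59 to 103 CPM per kb. At the top, 290 members reached at least 100 CPM per kb in control, against 110 in *U2af38* RNAi and 253 in *SRPK* RNAi. At the bottom, 247 members were under 1 CPM per kb in control, against 104 and 250. This lower end follows in part from how the members were chosen: 108 had at most 3 fragments in each control library and reached 50 fragments only through the knockdowns, against 3 members this low in *U2af38* RNAi. The median in *U2af38* RNAi was 9.41 CPM per kb and the maximum 1470, where control had a maximum of 4260.

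The 5 members with the highest control level per kb all fell in *U2af38* RNAi. *CG33340*, on chromosome 3R at 24363138 to 24364289 (dm6, as all positions here, plus strand), stood at 4650, 4850 and 5240 CPM in control, at 1650, 1780 and 1640 in *U2af38* RNAi and at 3740, 4360 and 4600 in *SRPK* RNAi. The *U2af38* RNAi libraries lay below all others, and the *SRPK* RNAi libraries lay just under control without overlap. The log2 fold change was -1.54 (SE 0.09, adjusted p = 6.53e-09, quasi-likelihood F-test of edgeR, adjusted after Benjamini and Hochberg over all genes tested) in *U2af38* RNAi and -0.21 (SE 0.09, adjusted p = 0.0676, edgeR) in *SRPK* RNAi. The latter passed in other settings, with adjusted p = 0.0290 without *SRPK* RNAi replicate 3, 0.0150 with the replicate block and 0.0489 with lane 2 only by edgeR, and 0.0119 by DESeq2. Exons of *CG33340* overlap a neighbour on the same strand, and fragments shared with it were not counted, so its level is a lower limit.

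*CG8701* and *CG2127* lie next to each other inside an intron of *pdm3*, which codes for a POU domain transcription factor, on 2R. *CG8701* (8371073 to 8372142, plus strand, the strand of *pdm3*) stood at 4240, 4580 and 4700 CPM in control, 1220, 1330 and 1220 in *U2af38* RNAi, against 3370, 3800 and 4040 in *SRPK* RNAi. *CG2127* (8368344 to 8370038, minus strand) stood at 4490, 4800 and 5200 CPM in control, 1210, 1270 and 1350 in *U2af38* RNAi, against 3760, 4240 and 4630 in *SRPK* RNAi. In *U2af38* RNAi both genes were below every control library, by log2 fold changes of -1.84 (SE 0.08) and -1.92 (SE 0.09), with adjusted p = 6.66e-10 and 1.12e-09 by edgeR. The *SRPK* RNAi libraries of *CG2127* overlapped control, and its log2 fold change of -0.20 did not pass (adjusted p = 0.0981, edgeR), though it did without *SRPK* RNAi replicate 3 (adjusted p = 0.0332, edgeR), with the replicate block (-0.20, 0.00462, edgeR) and with DESeq2 (0.0307). *CG8701* passed in *SRPK* RNAi at -0.27 (adjusted p = 0.0188, edgeR), but not without control replicate 2 (0.103), control replicate 3 (0.0743) or *SRPK* RNAi replicate 2 (0.0545) and not in a fit of the 2 genotypes only (0.0593).

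*CG12860* and *CG12861* form another neighbouring pair on 2R, both on the minus strand and clear of other genes. *CG12860* (14665641 to 14666817) stood at 3370, 3710 and 3800 CPM in control, 614, 673 and 657 in *U2af38* RNAi, against 2500, 2900 and 3030 in *SRPK* RNAi. *CG12861* (14664246 to 14665356) stood at 3280, 3350 and 3590 CPM in control, 719, 801 and 766 in *U2af38* RNAi, against 2330, 2700 and 2990 in *SRPK* RNAi. Control, *SRPK* RNAi and *U2af38* RNAi stood in this order from high to low in both genes, with no overlap between groups. The *U2af38* RNAi log2 fold changes were -2.48 and -2.16 (SE 0.09 each, adjusted p = 7.14e-11 and 4.08e-10, edgeR). Those of *SRPK* RNAi were -0.37 (SE 0.08, adjusted p = 0.00392, edgeR) and -0.35 (SE 0.09, adjusted p = 0.0084, edgeR).

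**Figure D2:**
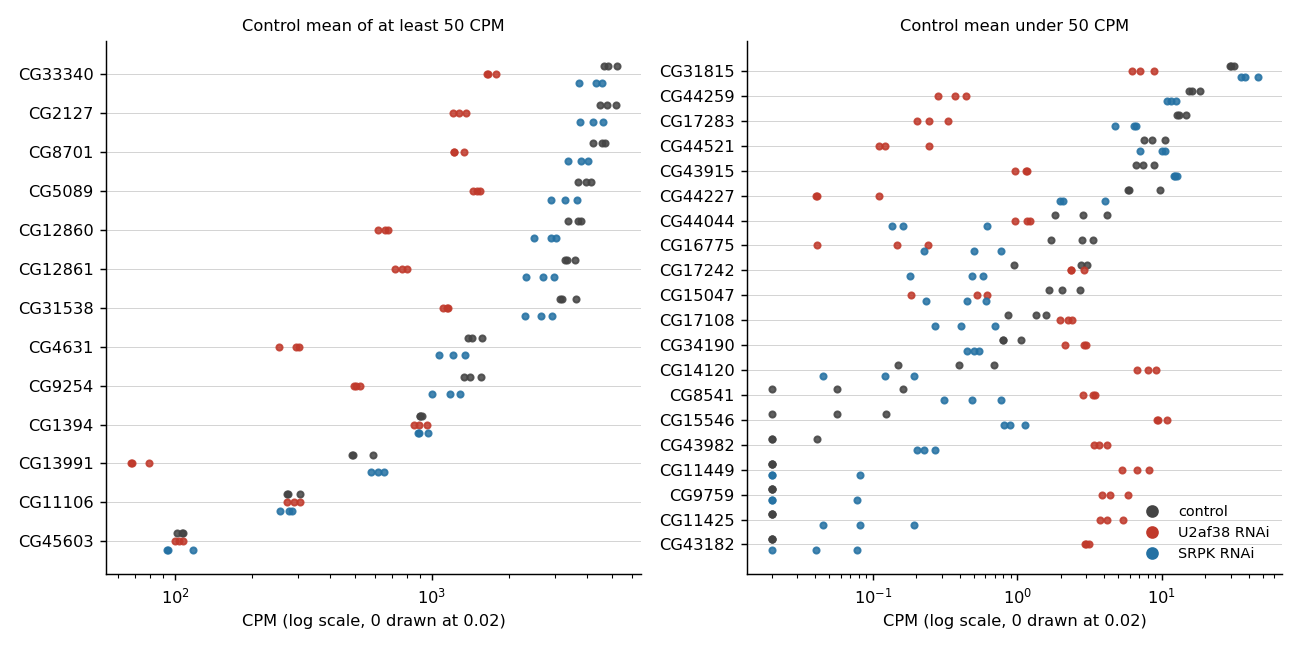
CPM after TMM scaling (log axis) of the members chosen by the naming rules, in each of the 9 libraries. The left panel holds members with a control mean of at least 50 CPM and the right panel those below, with a value of 0 drawn at 0.02. *CG33340* is at the top left with 4650 to 5240 CPM in control, and *CG43182* at the bottom right with 0 in control and 2.96 to 3.15 CPM in *U2af38* RNAi.

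*U2af38* RNAi changed most members, and more of them fell than rose. Of the 1112 members that passed the filter on low counts, 607 (54.6%) were called lower than control and 333 (29.9%) higher at an adjusted p under 0.05, where 37.5% and 44.7% of all 14941 genes tested were called (82.2% in either direction). The 23 members that were not tested had at most 75 fragments. The median log2 fold change of the members was -0.57 (quartiles -1.84 and 0.69) and that of all genes 0.12. With a minimum log2 fold change of 1 in either direction, 460 members were called lower and 241 higher, where 21.7% and 27.1% of all genes tested were called (48.9% in either direction).

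The balance of these calls moved with the scaling, because the libraries of *U2af38* RNAi had TMM factors of 1.30 to 1.32 and those of control 0.816 to 0.864. Scaling on library size alone raised the median of all genes from 0.12 to 0.76, scaling on upper quartiles raised it to 0.42, and scaling on ribosomal protein genes lowered it to -0.32. With these the members' calls were 484 higher and 483 lower, 415 and 546, and 256 and 701, and their median was 0.062, -0.27 and -1.004. A change of scaling shifts all genes by nearly the same amount, so the members' median minus that of all genes tested was -0.69 under each of the 4 scalings by construction. Named intronless genes had a median of 0.25, with 47.8% called higher and 30.2% lower, and unnamed genes with introns a median of 0.05, with 42.2% and 39.7%. With the ribosomal protein scaling these medians were -0.18 and -0.38.

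Members with a high control level fell most often. The tested members were divided into 3 classes of equal size by control CPM per kb. In the highest class (from 69.25 CPM per kb), 354 of 371 members (95.4%) were called lower in *U2af38* RNAi and 8 higher, with a median log2 fold change of -1.75, and between 82.7% and 98.9% were called lower under the other scalings. In the middle class (from 4.99) 217 of 370 were called lower and 82 higher, with a median of -0.58, which became 0.0595 with library size alone. In the lowest class (up to 4.86) 36 of 371 were called lower and 243 higher (65.5%), with a median of 1.72. All 106 tested members with at most 3 fragments in each control library are in this class, were called higher, and had passed the limit of 50 fragments only through the knockdowns. Without them, an alternative chosen after seeing the data, 137 of 265 (51.7%) were called higher and 36 (13.6%) lower, with a median of 0.68. Among these 265, members with few control fragments, such as *CG8541* with 5, also reached 50 fragments only through the knockdowns. Their part in the rise was likewise fixed by the choice.

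All genes tested moved with control level in the same direction, by different amounts. Of the 2053 genes with a control level as in the members' highest class, 79.0% were called lower, with a median of -1.13. Among unnamed genes with introns at this level the share was 88.5% (585 of 661) and the median -1.44, and among named intronless genes 79.3% (107 of 135) and -1.10. At the level of the lowest class 66.1% of all genes were called higher and 12.6% lower, near the members' 65.5% and 9.70%, and without genes at no more than 3 fragments in each control library the shares over all genes were 57.7% and 15.8%, with a median of 0.76. In the middle class the medians were -0.22 for all genes, -0.32 for unnamed genes with introns and 0.08 for named intronless genes. With library size alone these were 0.42, 0.31 and 0.72, and with ribosomal protein genes -0.66, -0.76 and -0.35. Since control libraries set both the level and the comparison, the classes were also formed from the *SRPK* RNAi libraries, an alternative chosen after seeing the data. The highest class then had 347 of 371 members called lower and a median of -1.66, and the lowest class, with the nearly silent members in it, 238 called higher and a median of 1.65.

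**Figure D3:**
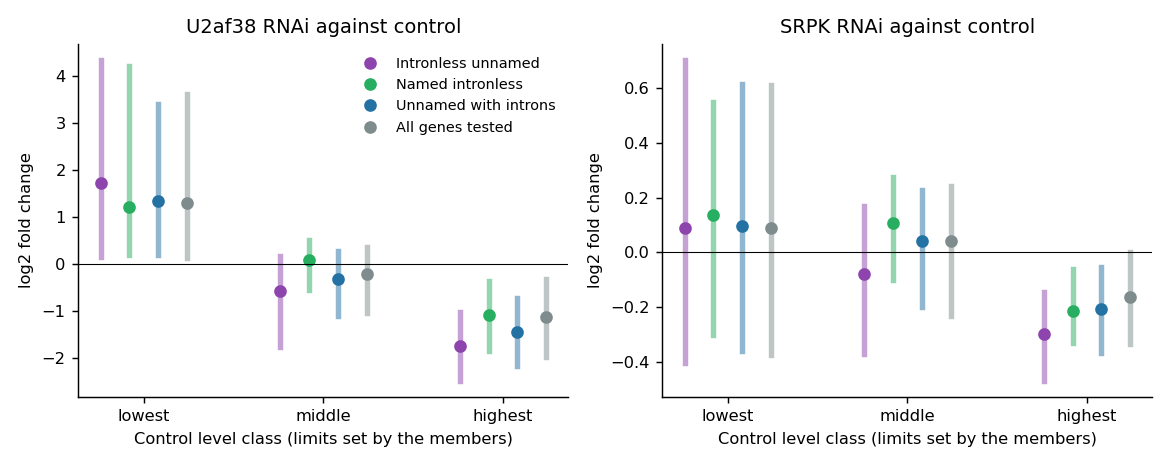
Log2 fold change of each knockdown against control for genes in 3 classes of control level, with class limits in CPM per kb set by 3 equal parts of the tested members. Points are medians and bars run from the lower to the upper quartile. In *U2af38* RNAi the members' medians go from 1.72 in the lowest to -1.75 in the highest class, and all genes tested go from 1.30 to -1.13.

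**Figure D4:**
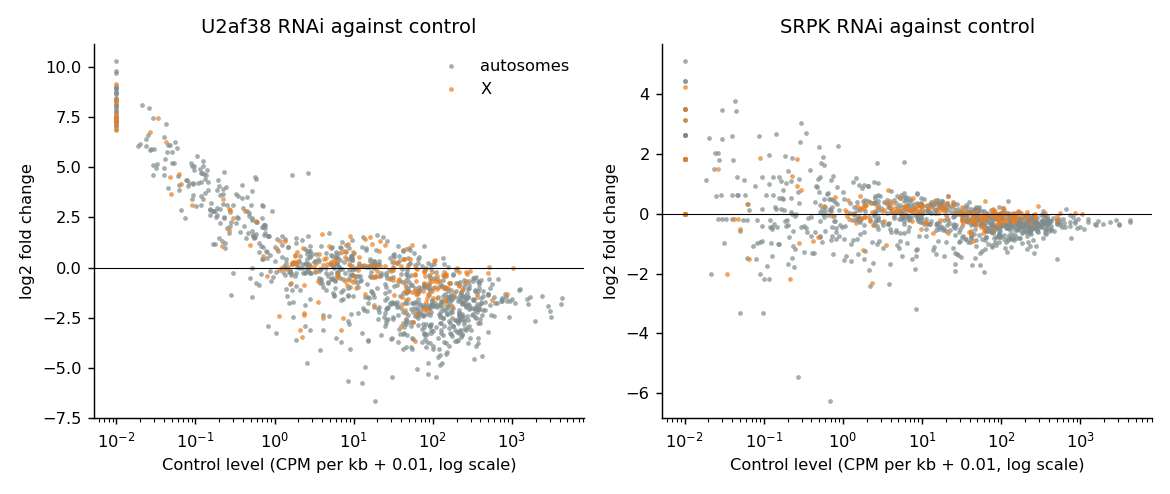
Log2 fold change of each tested member against its control level (CPM per kb plus 0.01, log axis), with members on X in orange and on autosomes in grey. The vertical axes of the panels differ. Members at 0 in control stand at the left edge, and the members of the highest level class in *U2af38* RNAi have a median of -1.75.

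The 4 largest falls in *U2af38* RNAi were of members with moderate control levels. *CG44227* (3R, 8684793 to 8685176, minus strand) stood at 5.91, 9.77 and 5.88 CPM in control, 0.0410, 0.111 and 0.0403 in *U2af38* RNAi, against 1.98, 4.03 and 2.07 in *SRPK* RNAi. It is 384 bases long and lies in an intron of the noncoding gene *lncRNA:CR44937*, on the same strand. The groups did not overlap, and the log2 fold change was -6.66 in *U2af38* RNAi (SE 0.49, adjusted p = 6.61e-08, edgeR) and -1.40 in *SRPK* RNAi (SE 0.31, adjusted p = 0.00315, edgeR). The *U2af38* RNAi values of *CG44227* rest on 1, 3 and 1 fragments, so the size of this fall and its rank are uncertain.

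*CG44521* (3L, 5713331 to 5714029, plus strand) stood at 7.52, 10.5 and 8.50 CPM in control, 0.246, 0.111 and 0.121 in *U2af38* RNAi, against 7.09, 10.5 and 9.97 in *SRPK* RNAi. It lay more than an order of magnitude below control in each *U2af38* RNAi library, while *SRPK* RNAi and control overlapped. Its *U2af38* RNAi values rest on 6, 3 and 3 fragments, so the size of the fall is uncertain here too. Its log2 fold change in *U2af38* RNAi was -5.76 (SE 0.30, adjusted p = 2.15e-09, edgeR). Between the knockdowns it differed by -5.81 (SE 0.30, adjusted p = 2.38e-09, edgeR). It lies in an intron of *sif*, a guanine nucleotide exchange factor for Rac, on the same strand.

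*CG17283* (3R, 17407876 to 17409460, plus strand, clear of other genes) stood at 12.7, 13.1 and 14.8 CPM in control, 0.246, 0.334 and 0.202 in *U2af38* RNAi, against 6.64, 6.40 and 4.78 in *SRPK* RNAi. *CG44259* (3R, 17253581 to 17254129, minus strand, in an intron of *beat-IIb* on the same strand) stood at 18.4, 16.1 and 15.4 CPM in control, 0.369, 0.445 and 0.282 in *U2af38* RNAi, against 11.6, 10.8 and 12.5 in *SRPK* RNAi. In both, *SRPK* RNAi stood between control and *U2af38* RNAi without overlap. Their log2 fold changes were -5.66 (SE 0.22) and -5.48 (SE 0.16) in *U2af38* RNAi, with adjusted p = 1.47e-10 and 1.93e-11 by edgeR, and -1.19 and -0.52 in *SRPK* RNAi, with adjusted p = 7.74e-05 and 0.0023 by edgeR.

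The 4 largest rises in *U2af38* RNAi were of members with no fragment in any control library, which met the 50 fragments and the mean of 1 CPM for naming only through the knockdowns, so their direction was fixed by the choice. *CG11449* (3L, 22454373 to 22455989, plus strand) stood at 0 in control, at 6.73, 5.30 and 8.14 CPM in *U2af38* RNAi and at 0.0810, 0 and 0 in *SRPK* RNAi. Set against a floor of 3 fragments in the control library where this is worth most (0.171 CPM), it was at least 39.4-fold higher in *U2af38* RNAi (adjusted p = 2.15e-07, edgeR). *CG9759* (3R, 13607078 to 13609246, minus strand) at 4.39, 3.89 and 5.81 CPM was at least 27.5-fold higher (adjusted p = 4.88e-07, edgeR).

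*CG11425* (3L, 22474795 to 22475792, plus strand), which lies close to *CG11449*, stood at 3.74, 4.15 and 5.40 CPM in *U2af38* RNAi and was at least 26.0-fold higher there (adjusted p = 2.27e-07, edgeR). *CG43182*, a gene of 251 bases on X (353067 to 353317, plus strand) in an intron of *CG32816* on the other strand, stood at 2.96, 3.15 and 2.98 CPM and was at least 17.8-fold higher (adjusted p = 3.76e-07, edgeR). In all 4 genes the *U2af38* RNAi libraries stood above every other library.

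In *U2af38* RNAi nearly every member gave fragments. In its 3 libraries 1132 to 1133 of the 1135 members had at least 1 fragment, against 1043 to 1069 in control and 1069 to 1088 in *SRPK* RNAi. Over all genes of the table the shares were 93.1% to 93.5%, 83.7% to 85.4% and 86.1% to 87.0%. Unlike the members, these genes did not have to reach 50 fragments, so the sets are not alike. A member that was silent in control could reach 50 fragments only through the knockdowns, so the rise of such members was fixed by how they were chosen. The 106 tested members with at most 3 fragments in each control library had levels of 0.413 to 12.1 CPM per kb in *U2af38* RNAi, with a median of 1.85. With each of them set at its bound against the floor, the median was at least 7.28-fold.

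*SRPK* RNAi moved fewer members and by less, and again more fell than rose. Of the 1112 members tested, 396 (35.6%) were called lower than control and 103 (9.26%) higher, where 21.1% and 20.3% of all genes tested were called (41.4% in either direction). The median log2 fold change was -0.16 (quartiles -0.45 and 0.14) against 0.01 over all genes. The lower count kept its excess over the higher one under each scaling, with 163 higher and 304 lower for library size alone, 98 and 399 for upper quartiles and 73 and 432 for ribosomal protein genes. With a minimum log2 fold change of 1 in either direction, 60 members were called lower and 24 higher, where 5.37% and 3.81% of all genes tested were called (9.18% in either direction). Named intronless genes had 18.5% called higher and 19.8% lower with a median of 0.04, and unnamed genes with introns 18.1% and 21.3% with a median of 0.00. Both medians were below 0 with the ribosomal protein scaling.

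Here too the members with high control levels fell most often. In the highest class 242 of 371 (65.2%) were called lower in *SRPK* RNAi and 5 higher, with a median of -0.30. In the middle class 126 of 370 (34.1%) were called lower and 61 (16.5%) higher, and in the lowest class 28 of 371 (7.55%) and 37 (9.97%). Of all genes tested at the level of the highest class, 46.4% were called lower, with a median of -0.16. At the level of the middle class 23.4% were called lower and 29.0% higher, and at that of the lowest class 11.3% and 16.7%, the last pair above the members' shares in both directions. The median of the highest class was -0.18, -0.31 and -0.37 under library size, upper quartile and ribosomal protein scaling.

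The 4 largest falls in *SRPK* RNAi were of members with control means of a few CPM. Of these, *CG44044*, *CG16775* and *CG15047* reached the mean of 1 CPM set for naming only through the control libraries. *CG16775*, with 157 fragments in control, 11 in *U2af38* RNAi and 37 in *SRPK* RNAi, also reached 50 fragments only through control. The falls of these members were therefore favoured by the choice. *CG44044* (3R, 16321838 to 16322189, plus strand) stood at 2.86, 4.15 and 1.84 CPM in control, 0.162, 0.621 and 0.135 in *SRPK* RNAi and 1.23, 0.964 and 1.17 in *U2af38* RNAi. It overlaps *Sulf1*, a sulfatase of heparan sulfate, on the other strand. It fell in both knockdowns, with fitted values of -3.20 in *SRPK* RNAi (log2, SE 0.47, adjusted p = 0.000234, edgeR) and of -1.38 in *U2af38* RNAi (SE 0.40, adjusted p = 0.00673, edgeR), the latter not past the threshold with library size alone (adjusted p = 0.0964, edgeR), and the knockdowns differed (log2 difference 1.82, adjusted p = 0.00515, edgeR).

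*CG17242* (2L, 2268106 to 2269140, minus strand) stood at 0.952, 2.78 and 3.06 CPM in control, 0.486, 0.582 and 0.180 in *SRPK* RNAi and 2.34, 2.37 and 2.90 in *U2af38* RNAi. Its control replicate 1 lay near the *SRPK* RNAi libraries, and its log2 fold change there was -2.41 (SE 0.46, adjusted p = 0.00136, edgeR). In *U2af38* RNAi it was 0.16 (adjusted p = 0.711, edgeR), a value that turned negative with the ribosomal protein scaling and without control replicate 1.

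*CG16775* (3L, 17885948 to 17886645, minus strand) stood at 2.81, 3.35 and 1.72 CPM in control, 0.770, 0.504 and 0.225 in *SRPK* RNAi and 0.0410, 0.148 and 0.242 in *U2af38* RNAi. *CG15047* (X, 18528683 to 18529593, plus strand, in an intron of *Bx* on the same strand) stood at 2.71, 1.65 and 2.04 CPM in control, 0.608, 0.233 and 0.451 in *SRPK* RNAi and 0.616, 0.185 and 0.524 in *U2af38* RNAi. Both knockdowns lay below control in both genes. The log2 fold changes in *SRPK* RNAi were -2.35 (SE 0.43, adjusted p = 0.00101, edgeR) and -2.31 (SE 0.41, adjusted p = 0.000925, edgeR). In *U2af38* RNAi they were -4.12 (SE 0.52, adjusted p = 9.87e-06, edgeR) and -2.28 (SE 0.41, adjusted p = 0.000232, edgeR).

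The 4 largest rises in *SRPK* RNAi started from control levels of almost 0. Their means were under 0.1 CPM in control and under 1 CPM in *SRPK* RNAi, so they reached the mean of 1 CPM set for naming only through the *U2af38* RNAi libraries, and that these stand highest was fixed by the choice. *CG15546* (3R, 30874365 to 30876186, minus strand) stood at 0, 0.0568 and 0.123 CPM in control, 1.13, 0.892 and 0.812 in *SRPK* RNAi and 9.48, 9.23 and 10.8 in *U2af38* RNAi. *CG8541* (3L, 7471559 to 7472514, plus strand) stood at 0, 0.0568 and 0.163 CPM in control, 0.486, 0.310 and 0.767 in *SRPK* RNAi and 2.83, 3.45 and 3.35 in *U2af38* RNAi. The groups did not overlap in either gene. The adjusted p in *SRPK* RNAi was 6.19e-05 and 0.00595 by edgeR, and the fitted log2 fold changes of 3.78 and 2.61 rest on 4 and 5 control fragments. The knockdowns differed by 3.37 (SE 0.25) and 2.63 (SE 0.37) on the log2 scale, with adjusted p = 7.58e-08 and 3.12e-05 by edgeR.

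*CG43982* (2R, 21763995 to 21764695, plus strand) had 1 fragment in control, and stood at 0.203, 0.271 and 0.225 CPM in *SRPK* RNAi and at 3.41, 3.67 and 4.15 in *U2af38* RNAi. The ratio to control was 14.5 (2.27 to 607, exact 95% interval for counting error only) in *SRPK* RNAi and 232 (41.3 to 9200) in *U2af38* RNAi, with adjusted p = 0.00232 and 1.52e-08 by edgeR, the first of these 0.0619 with lane 1 only. *CG11425*, which had no control fragment, stood at 0.0810, 0.194 and 0.0451 CPM in *SRPK* RNAi (adjusted p = 0.0192, edgeR). That mean is under the floor of 3 fragments, so no fold is given, and the adjusted p by edgeR was 0.0628 without *SRPK* RNAi replicate 2 and 0.393 with lane 2 only.

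In the direct comparison of the knockdowns 601 members (54.0%) were lower in *U2af38* RNAi than in *SRPK* RNAi and 327 (29.4%) higher, against 37.6% and 42.3% of all genes tested (79.9% in either direction). The median difference was -0.45 for the members and 0.07 for all genes. With library size alone it was 0.068 for the members and 0.59 for all genes.

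Both knockdowns were compared with the same control libraries, so their calls are set side by side and not tested for overlap. Of the 1112 tested members, 359 (32.3%) were called lower in both, 60 (5.40%) higher in both and 127 (11.4%) in neither, where the shares of all genes tested were 16.6%, 13.2% and 12.4%. In *U2af38* RNAi without a call in *SRPK* RNAi, 226 (20.3%) were called lower and 260 (23.4%) higher, against 17% and 29.2% of all genes. Of the 371 members in the highest class of control level, 113 were called lower in *U2af38* RNAi and not called in *SRPK* RNAi. The same count was not made over all genes at that level, so it cannot be read as particular to the members. Opposite calls were made for 22 members (1.98%) lower in *U2af38* RNAi and higher in *SRPK* RNAi, and for 13 (1.17%) in the reverse sense, 11 of them with a mean of at least 1 CPM. The shares of all genes tested were 3.90% and 2.26%.

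*CG43915* (3L, 3972899 to 3973784, plus strand) had the most negative difference among these. It stood at 8.87, 6.65 and 7.39 CPM in control, 1.15, 0.964 and 1.17 in *U2af38* RNAi, against 12.3, 12.8 and 12.2 in *SRPK* RNAi. No groups overlapped. The log2 fold change was -2.80 in *U2af38* RNAi (SE 0.15, adjusted p = 3.95e-09, edgeR) and 0.70 in *SRPK* RNAi (SE 0.13, adjusted p = 0.000947, edgeR), a difference of -3.50 (SE 0.15, adjusted p = 5.90e-10, edgeR). Its opposite calls stood with each library left out.

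*CG13991* (2L, 6139382 to 6145010, plus strand), at 5629 bases one of the longer members, stood at 493, 489 and 590 CPM in control, 67.9, 67.1 and 79.5 in *U2af38* RNAi, against 581, 617 and 652 in *SRPK* RNAi. *CG31815* (2L, 16605822 to 16607321, plus strand) stood at 31.9, 29.7 and 30.4 CPM in control, 6.20, 7.04 and 8.79 in *U2af38* RNAi, against 37.5, 35.4 and 46.5 in *SRPK* RNAi. Both fell in *U2af38* RNAi, by 2.87 (SE 0.09) and 2.06 (SE 0.13) on the log2 scale, with adjusted p = 4.10e-11 and 1.61e-08 by edgeR. Their values in *SRPK* RNAi were 0.23 and 0.38 (adjusted p = 0.0488 and 0.0255, edgeR), and the difference between the knockdowns was -3.11 and -2.44 (adjusted p = 4.23e-11 and 4.06e-09, edgeR). The *SRPK* RNAi call of *CG13991* was lost without any 1 of control replicates 1 and 2, *U2af38* RNAi replicates 1 and 2 and *SRPK* RNAi replicates 2 and 3 (adjusted p = 0.0568 to 0.145, edgeR), and that of *CG31815* without control replicate 2 or 3 or *SRPK* RNAi replicate 3 (0.0638 to 0.106). The opposite calls of both genes also depended on the scaling: with ribosomal protein genes their *SRPK* RNAi values were 0.16 and 0.30 (adjusted p = 0.292 and 0.118, edgeR), and that of *CG13991* had adjusted p = 0.077 with upper quartiles and 0.0554 with DESeq2. With lane 1 only neither passed (0.0794 and 0.106, edgeR).

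The reverse pattern was seen at low levels. *CG14120* (3L, 12885039 to 12889244, plus strand) stood at 0.15, 0.398 and 0.694 CPM in control, 8.09, 6.71 and 9.07 in *U2af38* RNAi, against 0.122, 0.194 and 0.0451 in *SRPK* RNAi. *CG34190* (2R, 16946455 to 16947554, minus strand) stood at 0.802, 0.796 and 1.06 CPM in control, 2.91, 2.15 and 2.98 in *U2af38* RNAi, against 0.446, 0.504 and 0.541 in *SRPK* RNAi. *CG17108* (2L, 10692940 to 10694103, minus strand) stood at 1.35, 1.59 and 0.858 CPM in control, 2.26, 1.97 and 2.38 in *U2af38* RNAi, against 0.405, 0.698 and 0.271 in *SRPK* RNAi. In each the *U2af38* RNAi libraries were above control, whereas *SRPK* RNAi overlapped control in *CG14120* and stood below it in *CG34190* and *CG17108*. *CG14120*, with 27 fragments in control and 9 in *SRPK* RNAi, reached 50 fragments only through its 603 in *U2af38* RNAi. In *CG14120* and *CG34190* the control and *SRPK* RNAi means were under 1 CPM, and in *CG17108* they were 1.27 and 0.458. Each therefore reached the mean of 1 CPM set for naming only through *U2af38* RNAi. That this group stands highest was fixed by the choice in *CG14120* and *CG34190* and favoured by it in *CG17108*.

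The *U2af38* RNAi and *SRPK* RNAi levels of these 3 genes differed by 5.95 (SE 0.43), 2.42 (SE 0.26) and 2.23 (SE 0.34) on the log2 scale, with adjusted p = 7.28e-08, 2.80e-06 and 6.33e-05 by edgeR. Against control the log2 fold changes in *U2af38* RNAi were 4.20, 1.58 and 0.81 (adjusted p = 3.73e-07, 6.91e-05 and 0.0278, edgeR), and in *SRPK* RNAi -1.75, -0.84 and -1.42 (adjusted p = 0.0297, 0.0346 and 0.00798, edgeR). The *SRPK* RNAi call of *CG14120* was lost without control replicate 2 or 3 or *SRPK* RNAi replicate 1 or 3 (0.0552 to 0.2004) and with lane 2 only (0.227). That of *CG34190* was lost without control replicate 2 or 3, *U2af38* RNAi replicate 1 or any *SRPK* RNAi library (0.0524 to 0.136), with the replicate block (0.0532), DESeq2 (0.0767), library size (0.0582) and either lane alone (0.0824 and 0.282). The *U2af38* RNAi call of *CG17108* was lost without control replicate 3 or *U2af38* RNAi replicate 1 or 3 (0.0704 to 0.123), with the ribosomal protein scaling (log2 fold change 0.38, adjusted p = 0.282, edgeR) and with lane 1 (0.131), and its *SRPK* RNAi call with lane 2 (0.114).

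By place, 612 members (53.9%) were clear of other genes, 169 (14.9%) lay inside an intron of a gene on the same strand, 139 (12.2%) inside an intron on the opposite strand, and 215 (18.9%) overlapped another gene in some other way. Members inside introns were the more abundant in control, with medians of 54.6 CPM per kb on the same strand and 57.0 on the opposite strand, against 14.97 for clear and 9.96 for overlapping members. In *U2af38* RNAi 114 of 166 tested members on the strand of the intron's gene (68.7%) and 84 of 135 on the opposite strand (62.2%) were called lower, with medians of -1.23 and -1.07. Of the clear members 310 of 599 (51.8%) were called lower with a median of -0.43, and of the overlapping members 99 of 212 (46.7%) with a median of -0.23. The medians of the nested classes stayed negative under each scaling, while that of clear members was 0.21 with library size alone and that of overlapping members 0.40 and, with upper quartiles, 0.07. In *SRPK* RNAi the medians were -0.27 and -0.22 for nested members and -0.15 and -0.10 for clear and overlapping ones, the last of these 0.012 with library size alone.

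Within the highest class of control level the place classes had similar values. The share called lower in *U2af38* RNAi was 94.9% for members in an intron of the same strand, 95.2% in an intron of the opposite strand, 95.1% for clear and 97.8% for overlapping members, and the medians lay between -1.83 and -1.71. This split was chosen after seeing the data, and the differences between the classes were not tested.

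In *U2af38* RNAi the genes around the nested members were called lower nearly as often as all genes tested. The shares were 33.3% on the same strand and 35.7% on the opposite strand, against 37.5% of all genes. For 166 members in an intron on the same strand, the 138 surrounding genes had a median of 0.44 (log2 fold change) in *U2af38* RNAi, with 76 called higher and 46 lower, and 65 of these members were called lower while the surrounding gene was called higher. For 134 members on the opposite strand, the 112 surrounding genes had a median of 0.31, with 57 called higher and 40 lower, and for 38 members the pair was split in this way. The split pairs were not set against what the separate shares of members and surrounding genes would give. They therefore cannot be read as particular to nested pairs. With the ribosomal protein scaling the medians of the surrounding genes were 0.0002 on the same and -0.12 on the opposite strand, and the members' medians -1.67 and -1.51. In control, 121 of the 166 and 94 of the 134 members had a higher level per kb than the exons of the surrounding gene. Reads from unspliced host RNA on the same strand are counted for the nested member where its exon lies, and the part of such reads was not tested.

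Besides *CG8701*, the nested members on the same strand with the highest mean CPM were *CG31538* and *CG4631*. *CG31538* (3R, 5275678 to 5277835, minus strand) lies in *mtd*, which codes for a protein related to oxidation resistance, and stood at 3190, 3160 and 3620 CPM in control, 1100, 1150 and 1140 in *U2af38* RNAi, against 2310, 2660 and 2930 in *SRPK* RNAi. The log2 fold change of *CG31538* in *U2af38* RNAi was -1.56 (SE 0.09, adjusted p = 7.75e-09, edgeR). In *SRPK* RNAi it was -0.34 (adjusted p = 0.0101, edgeR), not past the threshold without control replicate 3 (0.0517, edgeR). *mtd* stood at 190 to 196 CPM in control and 212 to 219 in *U2af38* RNAi (log2 fold change 0.16 with TMM scaling, adjusted p = 0.00458, edgeR).

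*CG4631* (2L, 16607370 to 16610037, plus strand) lies in *mtgo* directly beside *CG31815*, and stood at 1380, 1430 and 1560 CPM in control, 254, 295 and 304 in *U2af38* RNAi, against 1060, 1210 and 1340 in *SRPK* RNAi. It fell by 2.36 on the log2 scale in *U2af38* RNAi (SE 0.10, adjusted p = 3.20e-10, edgeR), where *mtgo* was at 147 to 156 CPM against 114 to 125 in control (log2 fold change 0.38, adjusted p = 3.03e-05, edgeR). In *SRPK* RNAi *CG4631* was below control in every library (log2 fold change -0.28, adjusted p = 0.0341, edgeR). *CG31815*, in the same intron-bearing gene and on the same strand, was above control in every library. The *SRPK* RNAi call of *CG4631* was lost without control replicate 2 or 3 or *SRPK* RNAi replicate 1 or 2 (0.0798 to 0.137, edgeR), and that of *CG31815* in the settings given above.

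On the opposite strand the highest besides *CG2127* were *CG5089* and *CG9254*. *CG5089* (2R, 16598748 to 16600411, plus strand, in *CG8303*) stood at 3690, 3990 and 4170 CPM in control, 1440, 1530 and 1490 in *U2af38* RNAi, against 2900, 3290 and 3650 in *SRPK* RNAi. *CG9254* (2L, 13595503 to 13597186, minus strand, in *kuz*, an ADAM metalloprotease of Notch signalling) stood at 1330, 1400 and 1550 CPM in control, 498, 524 and 507 in *U2af38* RNAi, against 1000, 1170 and 1290 in *SRPK* RNAi. Both were below every control library in both knockdowns. The log2 fold changes in *U2af38* RNAi were -1.41 and -1.48 (SE 0.09 each, adjusted p = 1.41e-08 and 1.16e-08, edgeR). Those in *SRPK* RNAi were -0.27 and -0.30 (adjusted p = 0.0257 and 0.0174, edgeR). The *SRPK* RNAi call of *CG5089* was lost without control replicate 2 or 3 or *SRPK* RNAi replicate 1 or 2 (0.0591 to 0.113, edgeR). That of *CG9254* was lost without control replicate 3 or *SRPK* RNAi replicate 2 (0.0881 and 0.0527, edgeR). *CG8303* was at 1.54 CPM per kb in control, where *CG5089* was at 2370.

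The gene *pdm3*, around *CG8701* and *CG2127*, fell as they did. It had 15.4, 15.8 and 21.5 CPM in *U2af38* RNAi against 76.4, 58.1 and 67.2 in control (log2 fold change -1.94, adjusted p = 2.22e-08, edgeR).

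**Figure D5:**
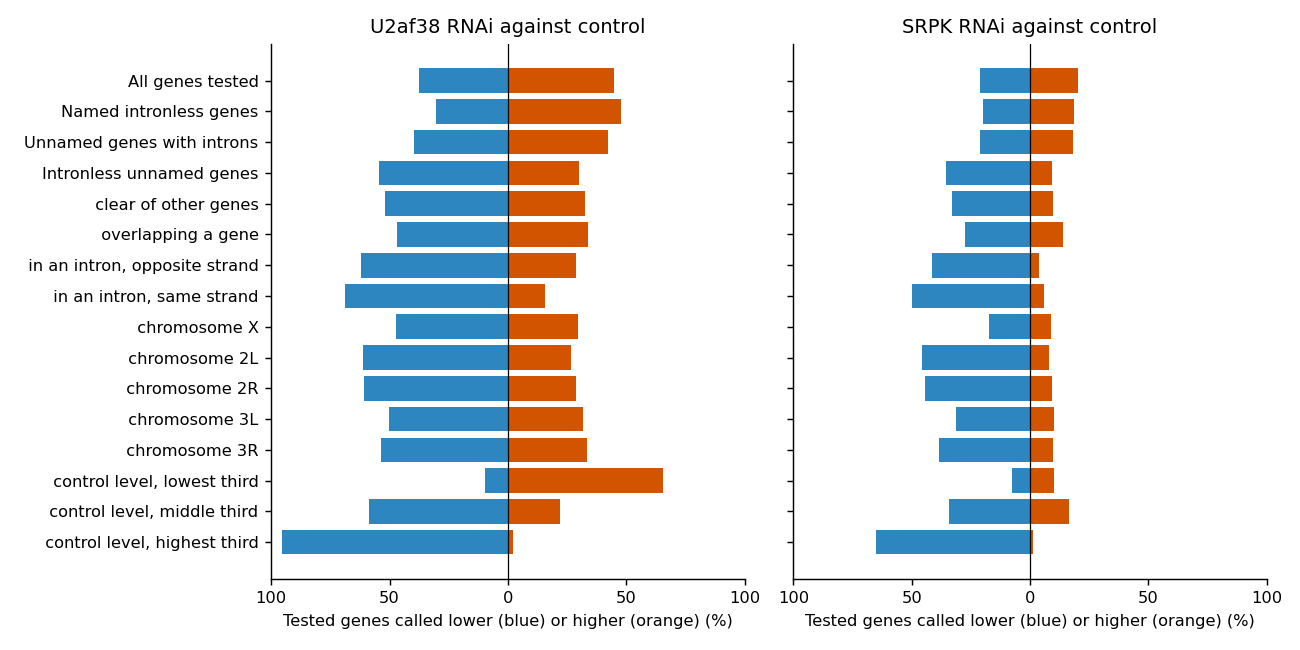
Share of tested genes (%) called lower (blue, to the left) or higher (orange, to the right) at an adjusted p under 0.05 by edgeR in each knockdown, for all genes, for the comparison groups and for the members by place, chromosome and class of control level. In *U2af38* RNAi 54.6% of the members and 37.5% of all genes are called lower, and in *SRPK* RNAi 35.6% and 21.1%.

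Members on X had medians nearer to 0 than those on the autosomes under TMM scaling. Of the members, 206 lie on X, 240 on 2L, 205 on 2R, 250 on 3L and 234 on 3R. In *SRPK* RNAi 35 of 204 tested members on X (17.2%) were called lower against 361 of 908 on the autosomes (39.8%), with medians of 0.00 and -0.21. The share on X was between 6.86% and 21.6% under the other scalings, and that on the autosomes between 31.9% and 42.7%. In *U2af38* RNAi 96 of 204 (47.1%) were called lower on X and 511 of 908 (56.3%) on the autosomes, with medians of -0.15 and -0.77, and the median on X was 0.15 with upper quartiles and 0.48 with library size alone. The arms 2L, 2R, 3L and 3R had medians of -0.81, -1.04, -0.52 and -0.60 with TMM scaling.

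The same difference stood at high control level. In the highest class 55 members lie on X, and in *SRPK* RNAi 11 of them (20%) were called lower, against 231 of 316 (73.1%) on the autosomes. In *U2af38* RNAi 49 of the 55 were called lower and 2 higher with a median of -0.77, and 305 of the 316 were lower with a median of -1.89. With library size alone the calls on X were 27 lower and 19 higher in *U2af38* RNAi, with a median of -0.13, and 3 lower and 10 higher in *SRPK* RNAi, while 280 and 190 of the 316 autosomal members were called lower. All protein-coding genes off chromosomes 4, Y and M differed between X and the autosomes in the same direction, with 9.86% and 21.4% called lower in *SRPK* RNAi, and medians of 0.21 and 0.08 in *U2af38* RNAi, which were -0.23 and -0.36 with the ribosomal protein scaling. The difference between X and the autosomes was not tested, since genes are not replicates.

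All 3 members chosen as uncalled in both knockdowns at the highest level lie on X. *CG1394* (11169811 to 11170678, minus strand) stood at 900, 895 and 917 CPM in control, 892, 952 and 850 in *U2af38* RNAi, against 879, 886 and 962 in *SRPK* RNAi. *CG11106* (11202248 to 11202806, plus strand) stood at 273, 305 and 275 CPM in control, 307, 290 and 273 in *U2af38* RNAi, against 257, 284 and 277 in *SRPK* RNAi. *CG45603* (12274635 to 12275155, plus strand, in an intron of *Ten-a*) stood at 102, 106 and 107 CPM in control, 99.7, 107 and 104 in *U2af38* RNAi, against 94.1, 93.4 and 117 in *SRPK* RNAi. The groups overlapped in all of them. With TMM scaling their log2 fold changes lay between -0.06 and 0.03 in either knockdown (SE 0.06 to 0.08). That no call was made depends on the scaling in all 3. In *CG1394* and *CG11106* it also depends on the filter, since both were called higher in *U2af38* RNAi with at least 10 counts in every library. In *U2af38* RNAi *CG1394*, *CG11106* and *CG45603* were at 0.63, 0.67 and 0.62 with library size alone (adjusted p = 6.48e-08, 4.19e-07 and 1.45e-06, edgeR), at 0.29, 0.33 and 0.29 with upper quartiles (adjusted p = 0.00136, 0.000639 and 0.00683, edgeR) and at -0.45, -0.41 and -0.45 with ribosomal protein genes (adjusted p = 0.000161, 0.000209 and 0.000645, edgeR), all past the threshold. *CG45603* was called lower in *SRPK* RNAi without *SRPK* RNAi replicate 3 (log2 fold change -0.16, adjusted p = 0.0290, edgeR).

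By exon length, the medians in *U2af38* RNAi of 3 classes of equal size were -0.65 (175 to 782 bases), -0.59 and -0.43 (1258 bases and more), and -0.0076, 0.049 and 0.21 with library size alone. In *SRPK* RNAi 150 of the 371 shortest members were called lower and 15 higher, against 109 and 57 of the 371 longest, with medians of -0.27 and -0.09, the latter 0.022 with library size alone. The split by length was not made over all genes, and control level was not matched between the length classes. For clear members, those with an upstream gene ending within 1000 bases on the same strand had 47.1% called lower in *U2af38* RNAi (80 of 170) and those beyond this distance 53.6% (230 of 429), with medians of -0.26 and -0.54. Their median control levels were 12.1 and 19.9 CPM per kb in this order, so control level was not matched here either. The split by distance was not made over all genes.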

How the data were processed

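Per the labels and the study's methods, the authors extracted total RNA from dissected testes, removed ribosomal RNA and made stranded libraries, each sequenced on 2 lanes. Reads were aligned to dm6 with STAR 2.7.1a, named in the submitters' processing notes. The authors deposited raw counts, which per the file headers are fragments assigned to genes of FlyBase 6.37 by featureCounts 1.6.2 on the reverse strand. Its options leave out fragments with several alignments or with exons of more than 1 gene on a strand. Near-identical copies of a gene are therefore uncertain.

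Lanes were summed, and 0 columns stayed unmatched to a sample. After filterByExpr, 14941 genes were fitted in R 4.3.3 with edgeR 4.0.16 (TMM factors, quasi-likelihood F-test, Benjamini-Hochberg adjustment over these genes, threshold 0.05). The fit held the 9 libraries of the 3 genotypes, without a block, and had a common dispersion of 0.0153. SEs are approximate: the size of the log2 fold change over the root of its F value. DESeq2 1.42.0 was an alternative. The steps were tested on simulated data. Summaries were made in Python 3.11.15 with pandas 2.3.3, numpy 2.4.6 and SciPy 1.17.1, and plots with matplotlib 3.10.9.

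Places were found from exon coordinates in the deposited table, and gene types from Ensembl release 115, in which all 1135 members had identical exons. The members and lists were chosen with earlier results of these data known, and the count of fragments that chose the members comes from the same libraries. Named members have a mean of at least 1 CPM and are the 4 largest rises and falls per knockdown without overlap of the groups, the 5 highest control levels per kb, the 3 extremes of opposite calls in each direction, the 3 highest uncalled in both knockdowns with log2 fold changes within 0.2, and the 3 highest in introns of each strand. Marker lists of 9 cell types were summed. Promoter motifs and similarity between proteins were not analysed here. A floor of 3 fragments was used, and intervals and floors cover counting error only. The alternatives were the 3 other scalings, 2 other filters, the replicate block, 2 genotypes only, each lane, each library left out, a minimum log2 fold change of 1 and narrower sets of members.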

Additional observations from a re-analysis of the deposited data

How the results depend on the processing

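Under all alternatives the members' median stayed below that of all genes tested in each comparison, which for the scalings follows from their construction, and the count called lower exceeded the count called higher, except with library size alone in *U2af38* RNAi (484 higher, 483 lower) and in the direct comparison (482 and 472). The values below moved by over 1.5 times or by more than 1 SD between libraries, and the cause was not tested beyond what the alternative itself changes.

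In *U2af38* RNAi against control, the median was -0.54 with DESeq2, 0.062 with library size alone, -0.27 with upper quartiles, -1.004 with ribosomal protein genes, -0.59 without a filter, -0.84 with at least 10 counts in every library, -0.62 and -0.65 with lane 1 and lane 2 only, -1.16 for members with at least 500 fragments and -0.43 for members clear of other genes. The median minus that of all genes was -0.78, -0.79, -0.89, -0.74, -0.76, -1.28 and -0.55 with DESeq2, no filter, 10 counts, lane 1, lane 2, 500 fragments and clear members. The count called higher was 193 with 10 counts, 128 with 500 fragments and 196 among clear members, and the count called lower was 310 among clear members.

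In *U2af38* RNAi against *SRPK* RNAi, the median was -0.39 with DESeq2, 0.0681 with library size, -0.14 with upper quartiles, -0.81 with ribosomal protein genes, -0.68 with 10 counts, -0.49 and -0.53 with lane 1 and lane 2, -0.92 with 500 fragments and -0.37 for clear members. Minus that of all genes it was -0.60 with DESeq2, -0.59 without a filter, -0.71 with 10 counts, -0.56 and -0.59 with lane 1 and lane 2, -0.99 with 500 fragments and -0.44 for clear members. The count called higher was 183 with 10 counts, 122 with 500 fragments and 196 among clear members, and the count called lower 310 among clear members.

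In *SRPK* RNAi against control, the count called higher was 163 with library size, 24 with a log2 fold change of at least 1 and 59 among clear members, the count called lower 60 and 199 in the last of these, and the median -0.0501 with library size and -0.24 with ribosomal protein genes.

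When single libraries were left out, the counts called higher and lower ranged from 319 to 340 and 599 to 615 for *U2af38* RNAi, from 88 to 113 and 329 to 412 in *SRPK* RNAi, and from 314 to 331 and 590 to 606 in the direct comparison. The medians ranged from -0.59 to -0.52, -0.18 to -0.13 and -0.50 to -0.42, and minus that of all genes from -0.73 to -0.66, -0.20 to -0.14 and -0.58 to -0.48.

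The main fit did not pair the samples by replicate number. Correlations of deviations between same-numbered libraries ranged from -0.465 to 0.365 and were not all above 0.1 in any comparison. With 3 libraries per group this cannot exclude a pairing. Members with no fragment in control are known only to lie under a floor of 0.171 CPM, which limits the folds given for them. With the replicate block the counts were 332 higher and 605 lower (*U2af38* RNAi), 105 and 433 (*SRPK* RNAi), and 327 and 599 in the direct comparison.

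Among named members, settings other than single libraries left out gave 23 lost calls and 10 gained in the same direction, counted per gene, comparison and setting. Besides those given with the genes above, the *U2af38* RNAi call of *CG44044* was lost with library size (-0.75, adjusted p = 0.0964, edgeR), and the *SRPK* RNAi calls of *CG4631* (0.0834 with library size and 0.0589), *CG5089* (0.0773) and *CG9254* (0.0534) were lost in a fit of the 2 genotypes only. The replicate block changed the calls of *CG33340*, *CG2127* and *CG34190* in *SRPK* RNAi and of no other named member. *CG1394* and *CG11106* were also called higher in *U2af38* RNAi with 10 counts (0.17 and 0.21, adjusted p = 0.0240 and 0.0101, edgeR).

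Directions turned for values that had not passed the test with TMM scaling. In *U2af38* RNAi, *CG1394* was at 0.0195 with DESeq2, 0.63 with library size, 0.29 with upper quartiles, 0.17 with 10 counts and 0.0516 and 0.0568 with lane 1 and lane 2. *CG45603* was at 0.0111, 0.62, 0.29, 0.16, 0.0802 and 0.0088 in the same order, and with ribosomal protein genes *CG11106* was at -0.41 and *CG17242* at -0.27. In *SRPK* RNAi, *CG1394* was at -0.0168 with DESeq2, -0.0054 with upper quartiles and -0.0695 with ribosomal protein genes, *CG11106* and *CG45603* at 0.0555 and 0.0609 with library size, and *CG44521* at -0.0187 with ribosomal protein genes and -0.15 with lane 1. Without single libraries, *U2af38* RNAi values ranged from -0.0619 to 0.0233 for *CG1394*, -0.0218 to 0.083 for *CG11106*, -0.0532 to 0.0001 for *CG45603* and -0.2119 to 0.4519 for *CG17242*, and *SRPK* RNAi values from -0.0303 to 0.035, -0.0856 to 0.0054 and -0.16 to 0.0121 for the first 3 of these and -0.0442 to 0.2125 for *CG44521*.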

Other observations

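Some members lie close to each other. Of the tested members, 158 neighbouring pairs were at most 2000 bases apart. In 98 of these pairs both members had the same call in *U2af38* RNAi (lower, higher or not called), and in 21 pairs one member was called lower and the other higher. Since 54.6% of the tested members were called lower and 29.9% higher, many pairs would share a call wherever they lay. The same counts were not made for members that are not neighbours or over all genes, so they cannot be read as particular to neighbouring members. Across these pairs, which share members and are not independent, the log2 fold changes had a Pearson r of 0.54, given as a description.

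Several of the pairs with opposite calls stand side by side on the chromosome at very different control levels. These pairs were chosen after their values were seen. *CG15549* and *CG15550* lie 81 bases apart on 3R (30935396 to 30937102) on the same strand. *CG15549* was at 79.6 CPM per kb in control and its log2 fold change in *U2af38* RNAi was -3.57, while *CG15550* had no control fragment and was higher. *CG5139* and *CG43348* lie 145 bases apart on 2L (1198465 to 1199924), with control levels of 217 and 0.106 CPM per kb and log2 fold changes of -1.54 and 4.25. *CG17283*, one of the 4 largest falls, lies 1364 bases from *CG42824*, which was at 0.694 CPM per kb in control and had a log2 fold change of 2.02. *CG15550* and *CG43348*, silent or nearly silent in control, could reach the 50 fragments required of a member only through the knockdowns. A rise of these genes in a knockdown was therefore fixed by the choice, and that of *CG42824* may have been favoured by it. The opposite calls in these pairs cannot be read as particular to neighbours.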
